A study of Saccharomyces cerevisiae with 22 samples.

Results

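Budding yeast held in heat and then moved back to rich medium were followed to see which transcripts dropped or recovered fastest within 15 min and which lagged. The account covers 4 of the 22 arrays of the series, taken by their labelled treatment: rich medium after heat at 15 and 45 min, and heat at 30 and 45 min. The cells were Saccharomyces cerevisiae of the strain labelled 4741, grown in YPD at 30 °C to mid-log phase. The heat groups were kept at 40 °C. Cells for the recovery arrays had spent 45 min in that heat before the transfer, so the heat array at 45 min is the start of recovery. The labels do not give the temperature of the rich medium. Beside these stand 2 untreated arrays from rich medium, and the matching set after osmotic stress: rich medium at 15 and 45 min after 45 min in 0.8 M KCl, and 0.8 M KCl at 30 and 45 min. The remaining arrays are peroxide series at 0.66 mM, which enter only an alternative fit that estimates the spread over all groups. Each stress and time has 1 array.

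A sudden rise in temperature makes yeast switch on overlapping programmes. The heat shock factor Hsf1 drives chaperone genes, and the zinc finger factors Msn2 and Msn4 drive a broad set of general stress genes for trehalose, antioxidant and storage metabolism, while genes for making ribosomes are shut down together. When the stress ends the changes are undone, and the speed for each transcript depends on how soon its synthesis stops or restarts and on how stable the message is.

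Values are log2 expression levels per gene, made by the authors with RMA, so that a difference of 1 is 2-fold. RMA brings the arrays to a common scale, so levels are relative to the other transcripts of the same array. In such bulk samples fewer cells of a type and less RNA per cell cannot be told apart. Of 5449 genes measured, 97.5% to 98.5% lay above a background of 4.62 on each array used here, and array medians lay between 10.18 and 10.21. The untreated pair differed at least 2-fold for 3 genes (0.0551%). The MATa markers MFA1, MFA2, STE2, BAR1, STE6 and AGA2 were above background on all 6 arrays, with summed levels (log2 of the sum) of 15.12 and 15.27 in rich medium after heat, 14.30 and 14.54 in heat, and 15.32 and 15.26 in untreated cells. Of 4 markers of the other mating type MF(ALPHA)1, its main pheromone gene, was above background on no array, while MF(ALPHA)2, STE3 and SAG1 were above it on all 6. The summed levels of these 4 markers were 9.06 and 9.35 in rich medium after heat, 9.63 and 9.45 in heat, and 8.87 and 9.12 in untreated cells. The 3′ minus 5′ signal of SPT15, a sign of RNA integrity, was 1.56 and 1.28 in rich medium after heat at 15 and 45 min, 1.71 and 1.62 in heat, and 1.23 and 1.28 in untreated cells. For SPT15 it was thus closer to the heat values at 15 min and closer to the untreated values at 45 min. The same signal of ACT1 was 0.41 and 0.50 in rich medium, 0.36 and 0.58 in heat, and 0.50 and 0.48 in untreated cells, without that order. That of SRB4 was 2.45 and 2.25 in rich medium, 2.44 and 2.69 in heat, and 2.38 and 2.26 in untreated cells. The part of RNA integrity in the results was not tested.

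Most of the return had taken place by 15 min. In rich medium 258 genes at 15 min and 97 at 45 min stood 2-fold or more away from untreated cells, against 1543 at 30 min and 1092 at 45 min of heat. At 15 min in rich medium 551 genes (10.1% of all genes) were at least 2-fold lower and 484 (8.88%) at least 2-fold higher than at 45 min of heat. Between 15 and 45 min in rich medium a further 163 genes (2.99%) went down and 149 (2.73%) went up by that much. For scale, the last 15 min of heat moved 37 genes (0.679%) down and 131 genes (2.40%) up by 2-fold. These steps set 1 array against 1 array, so they describe these arrays and carry no p-value.

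**Figure D1:**
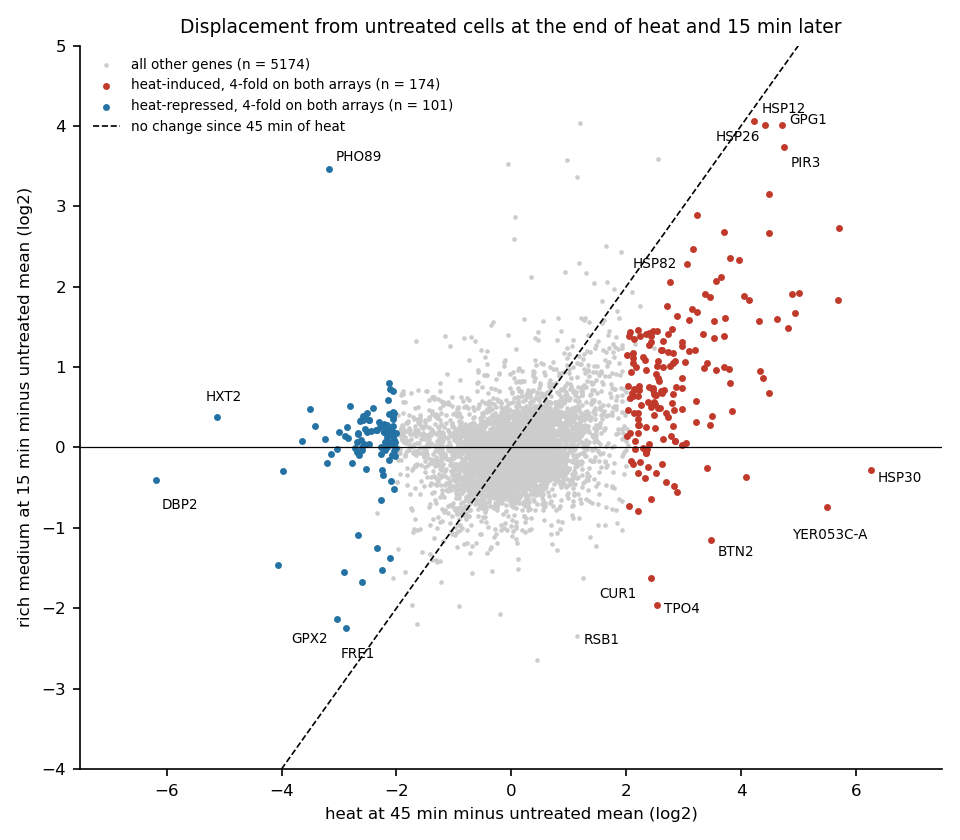
Log2 difference from the untreated mean after 15 min in rich medium (vertical) against the same at 45 min of heat (horizontal), with 1 point per gene and 1 array per axis. Points on the dashed line had not moved since the heat; HSP12 (share of 0.96 left) lies next to it, HSP30 lies near the untreated level, TPO4 lies below it and PHO89 lies above it.

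The mean of both rich medium arrays was then compared with the mean of both heat arrays, with limma and the Benjamini-Hochberg adjustment over all genes. In all 2475 genes (45.4%) passed an adjusted p of 0.05, 1446 of them lower (26.5%) and 1029 higher (18.9%) in rich medium. No separate cultures are stated, so these p-values measure only the spread between the arrays, and the change from 15 to 45 min within a group counts as spread. A gene that moves slowly is therefore less likely to pass. Without the heat array at 30 min the calls were 783 lower and 677 higher, and without either untreated array 936 were lower.

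Speed was described by the share of the heat displacement left, which is the distance from the untreated mean at a given time in rich medium divided by that at 45 min of heat, on the log2 scale. A share of 1 means no return, 0 the untreated level, and a negative share a position on the other side of it. It was computed for 174 heat-induced genes (3.19%), at least 4-fold above the untreated mean on both heat arrays, and 101 heat-repressed genes (1.85%), at least 4-fold below it. Since these genes were chosen on the heat arrays, their direction of return is partly fixed by the choice. That 168 of the 174 and 99 of the 101 passed the limma test is given beside the 45.4% of all genes for completeness only.

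By 15 min in rich medium repressed genes had come back further than induced genes had gone down. Among heat-repressed genes the median share left was -0.05 at 15 min, with quartiles of -0.12 and 0.02, and 69 of 101 were already past the untreated level. Among heat-induced genes it was 0.31, with quartiles of 0.12 and 0.47, and 26 of 174 were past it. On the log2 scale the median heat-induced gene was 0.81 above untreated at 15 min and 0.07 above at 45 min in rich medium, against 2.65 above at 45 min of heat. The median heat-repressed gene was 0.13 above untreated at 15 min and 0.12 above at 45 min in rich medium, against -2.30 at 45 min of heat. By 45 min the median share left was 0.02 for induced and -0.05 for repressed genes. Part of the movement back had begun in heat. From 30 to 45 min of heat the median change was 1.06 for the 90 repressed genes with a share of 0.25 or less. For the 10 repressed genes with a share between 0.25 and 0.75 it was 0.47. For induced genes it was -0.53 and -0.52 in the same ranges of share. With a share of 0.75 or more it was 0.04 for induced and -0.01 for repressed genes. The difference between the classes was not tested.

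**Figure D2:**
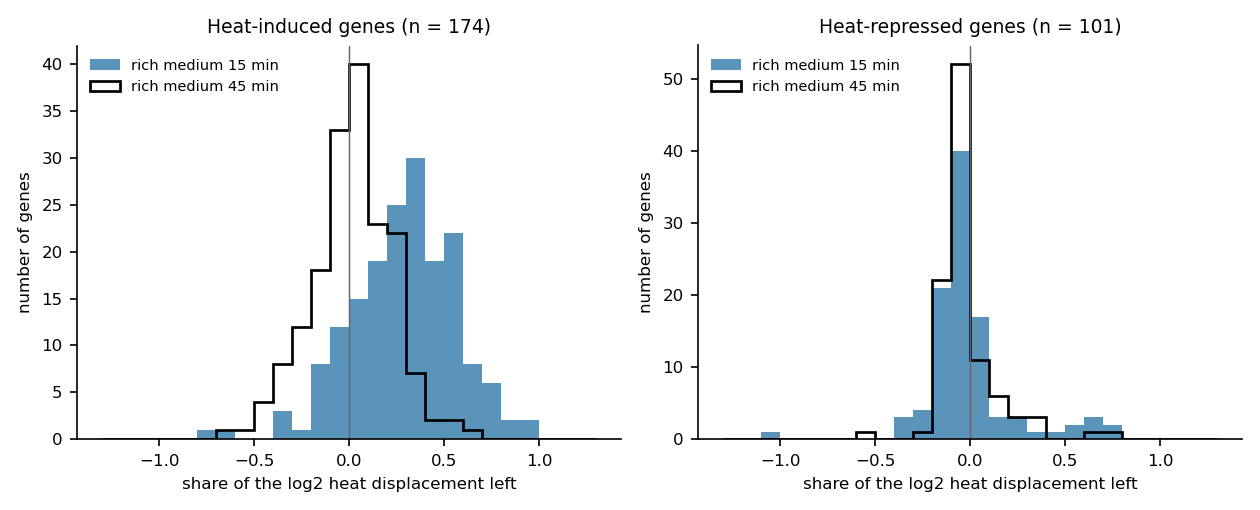
Number of genes by share of the log2 heat displacement left after 15 min (filled) and 45 min (outline) in rich medium, for 174 heat-induced and 101 heat-repressed genes; 0 is the untreated level and 1 is no return. At 15 min induced genes spread around a median of 0.31, and repressed genes gather around -0.05 with a tail of slow genes up to 0.78.

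With a share of 0.25 or less called fast and 0.75 or more called lagging, 69 induced genes were fast, 99 lay between and 6 lagged. Of the repressed genes 90 were fast, 10 lay between and 1, the ferric and cupric reductase gene FRE1, lagged. The limits are arbitrary and the values run through them: SNO4 stood at 0.24 and GCY1 at 0.25 on either side of the fast limit, and HSP31 stood at 0.75, just short of lagging, with BNA2 at 0.78 just inside. Fast, intermediate and lagging induced genes had median untreated levels of 7.98, 7.75 and 7.32. Their median gene lengths were 1233, 1035 and 531 bases. Their median displacements at 45 min of heat were 2.53, 2.72 and 4.32, and since that displacement is the divisor of the share, the last order is partly built in.

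HSP30, which encodes a heat shock protein of the plasma membrane that restrains the proton pump Pma1, gave the largest drop of any heat-induced gene. Its log2 level was 7.05 at 15 min and 7.54 at 45 min in rich medium, against 14.19 and 13.59 in heat, and 7.33 and 7.34 in untreated cells. Both recovery arrays were thus at the untreated level and far below both heat arrays. The drop by 15 min was 93.1-fold, which for a steady decline is a halving of the signal every 2.29 min. The mean difference between rich medium and heat was -6.59 ± 0.25 (SE, n = 2 arrays per group, limma adjusted p = 0.000564). The small gene YER053C-A followed it, with 5.68 and 6.24 in rich medium, against 12.29 and 11.92 in heat, and 6.45 and 6.39 in untreated cells (difference -6.14 ± 0.23, limma adjusted p = 0.000564).

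BTN2 and CUR1, paralogous sorting factors that gather misfolded proteins into deposits, dropped past the untreated level. BTN2 had 8.24 at 15 min and 8.99 at 45 min in rich medium, against 13.36 and 12.87 in heat, and 9.35 and 9.44 in untreated cells. CUR1 had 6.49 and 7.04 in rich medium, against 10.89 and 10.53 in heat, and 8.10 and 8.11 in untreated cells. Neither gene's rich medium arrays overlapped the untreated ones, and both genes were lower at 15 min than at 45 min. The limma differences between rich medium and heat were -4.50 ± 0.29 and -3.95 ± 0.22, each with an adjusted p of 0.00131. TPO4, a polyamine exporter gene, had the lowest share left at 15 min among heat-induced genes, with 7.38 and 8.55 in rich medium, against 12.51 and 11.87 in heat, and 9.32 and 9.35 in untreated cells (difference -4.23 ± 0.41, limma adjusted p = 0.00196). BTN2, CUR1 and TPO4 were the 3 heat-induced genes at least 2-fold below untreated at 15 min, and at 45 min CUR1 alone of them still was.

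The other members of the 8 largest early drops were RGI1, TMA10 and HSP78. RGI1, which is induced in respiratory growth, had 8.47 and 8.25 in rich medium, against 13.92 and 12.92 in heat, and 8.84 and 8.82 in untreated cells. TMA10, a ribosome-associated protein gene, took longer, with 8.53 at 15 min and 6.57 at 45 min in rich medium, against 13.01 and 12.38 in heat, and 6.85 and 6.53 in untreated cells. HSP78, the mitochondrial disaggregase gene, had 9.10 and 7.51 in rich medium, against 13.21 and 12.92 in heat, and 8.44 and 8.41 in untreated cells. All 3 genes fell, with limma differences of -5.06 ± 0.32, -5.14 ± 0.62 and -4.75 ± 0.49 and adjusted p of 0.00131, 0.0027 and 0.00218. RTC3, PHM7, CYC7 and SOL4 complete the 10 largest falls of the comparison, between -4.47 and -4.86. The call for RTC3 (adjusted p = 0.0067) was lost without the heat array at 30 min (adjusted p = 0.053).

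**Figure D3:**
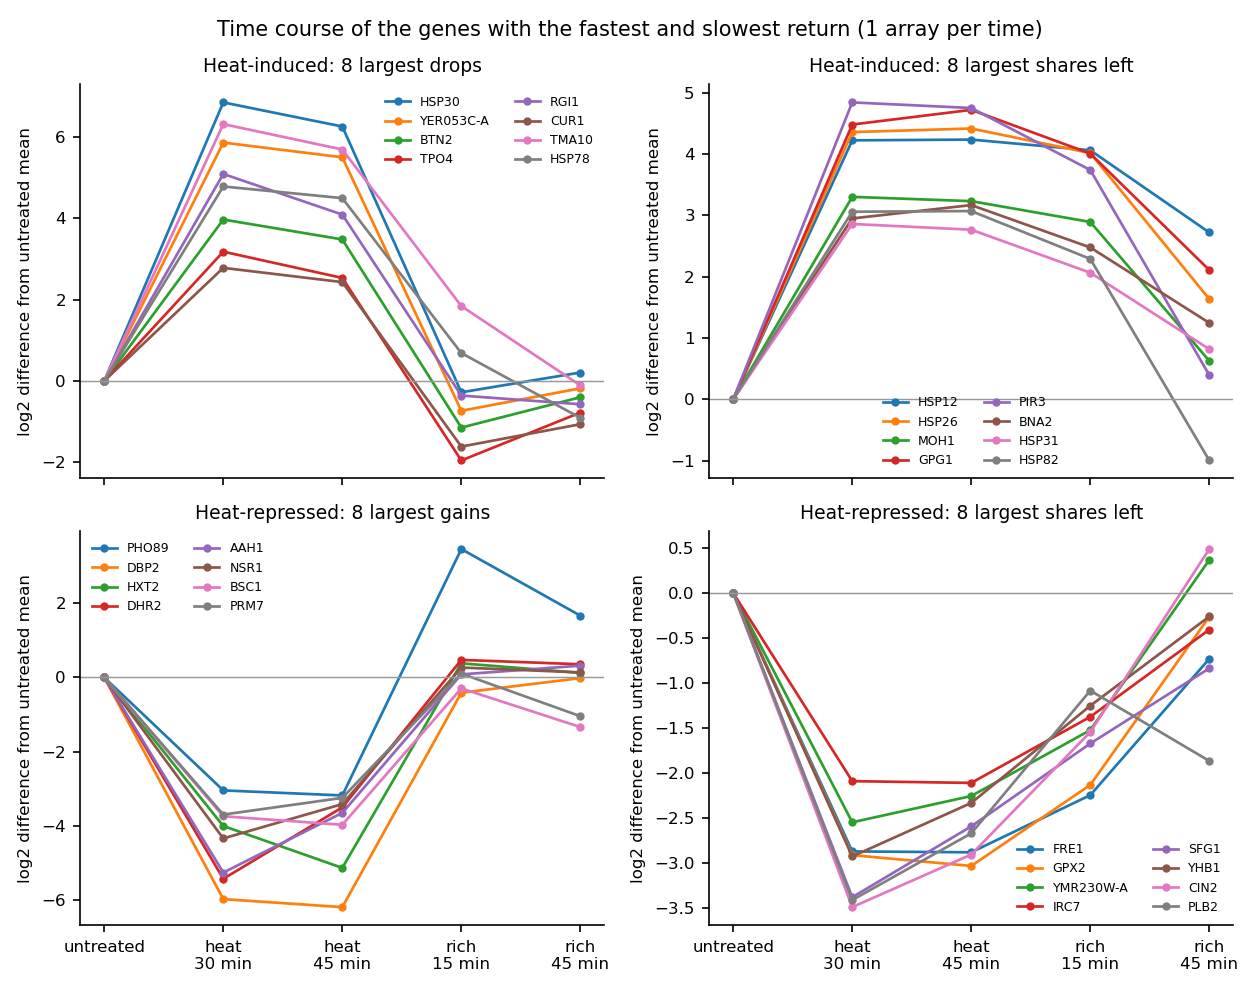
Log2 difference from the untreated mean (vertical) on the untreated, heat 30 min, heat 45 min, rich medium 15 min and rich medium 45 min arrays, evenly spaced and not to time scale, for the 8 heat-induced genes with the largest drops, the 8 with the largest shares left, and the same for heat-repressed genes; each point is 1 array. HSP30 is back at 0 by 15 min while HSP12 still stands 4.06 above it, and PHO89 overshoots to 3.46.

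HSP12, a small membrane-protecting stress protein gene, had hardly moved by 15 min. Its log2 level was 14.53 at 15 min and 13.19 at 45 min in rich medium, against 14.69 and 14.70 in heat, and 10.49 and 10.45 in untreated cells. The share left was 0.96 at 15 min and 0.64 at 45 min, the largest at both times among the heat-induced genes. HSP26, the small heat shock protein gene, had 14.23 and 11.85 in rich medium, against 14.57 and 14.63 in heat, and 10.22 and 10.21 in untreated cells, with shares of 0.91 and 0.37. The rich medium arrays of both genes lay below both heat arrays, but the differences did not pass (-0.84 ± 0.41 with adjusted p = 0.141 for HSP12 and -1.56 ± 0.71 with adjusted p = 0.119 for HSP26, limma), as the change from 15 to 45 min counts as spread.

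HSP82, which encodes the inducible Hsp90, kept a share just under the lagging limit at 15 min and was below its untreated arrays at 45 min. It had 13.73 at 15 min and 10.45 at 45 min in rich medium, against 14.50 and 14.51 in heat, and 11.53 and 11.37 in untreated cells (shares 0.75 and -0.33, limma adjusted p = 0.0896). PIR3, a cell wall protein gene, likewise had a share of 0.79 at 15 min and 0.08 at 45 min (adjusted p = 0.0682). MOH1 had 0.89 and 0.19, and GPG1, proposed as a subunit of a nutrient-sensing G protein, had 0.85 and 0.45. BNA2, of NAD synthesis, had 0.78 and 0.39, and HSP31, a methylglyoxal-detoxifying protein gene, had 0.75 and 0.30. The last pair passed the limma test (-1.20 ± 0.39 with adjusted p = 0.0484, and -1.37 ± 0.39 with adjusted p = 0.0323), and both calls were lost without either untreated array or either heat array, where the adjusted p reached 0.164 for BNA2 and 0.138 for HSP31.

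Some genes with large shares left were among the brightest on the array. The lagging genes HSP12 and HSP26, and HSP82 beside them, were within 1 log2 unit of the brightest gene at 45 min of heat (14.83), as were 10 of the 174 heat-induced genes in all. Those 10 had a median share left of 0.46 at 15 min, with a range of 0.20 to 0.96, against 0.29 for the other 164. The part of the array's upper limit in these shares was not tested. MOH1, at 8.63 at 45 min of heat, and GPG1, at 12.15, were far below the brightest gene.

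Chaperone genes did not switch off at one speed. Of 33 cytosolic chaperone and co-chaperone genes, 17 fell and 3 rose, beside 26.5% and 18.9% of all genes, and the list's median difference was -1.37 against -0.09 over all genes. Its median distance from untreated was 0.26 at 15 min and -0.28 at 45 min in rich medium, against 1.29 and 1.23 in heat. SIS1, the essential Hsp40 partner of Hsp70, had 11.28 and 10.49 in rich medium, against 13.84 and 13.51 in heat, and 11.80 and 11.71 in untreated cells. It was thus below untreated at both times (-2.79 ± 0.28, limma adjusted p = 0.00206). HSP42, a small heat shock protein gene, stayed above untreated, with 11.52 and 10.83 in rich medium, against 14.25 and 13.69 in heat, and 9.62 and 9.63 in untreated cells (-2.79 ± 0.28, limma adjusted p = 0.00216).

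Genes of the Hsp70 system and the disaggregase gene differed among themselves as well. HSP104, the cytosolic disaggregase gene, had 11.73 and 9.65 in rich medium, against 13.04 and 12.98 in heat, and 10.75 and 10.53 in untreated cells (-2.32 ± 0.63, limma adjusted p = 0.0283). SSA4, the stress-inducible Hsp70 gene, had 12.14 and 10.21 in rich medium, against 14.55 and 13.96 in heat, and 9.33 and 9.61 in untreated cells (-3.08 ± 0.61, limma adjusted p = 0.0106). Both were clearly above untreated at 15 min, and at 45 min HSP104 was below untreated and SSA4 still above. SSE2, an Hsp70 exchange factor gene, fell by 3.21 ± 0.38 on the log2 scale (adjusted p = 0.00264, limma). SSA1, a constitutive Hsp70 gene with a close copy in SSA2, had 14.09 and 12.27 in rich medium, against 14.42 and 14.67 in heat, and did not pass (-1.36 ± 0.55, limma adjusted p = 0.0924). The call for HSP104 was lost without either untreated array or either heat array (adjusted p up to 0.127), and that for SSA4 without the heat array at 30 min (adjusted p = 0.0736).

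Of 10 mitochondrial chaperone genes 5 fell and 0 rose, beside 26.5% and 18.9% of all genes. The Hsp40 gene MDJ1 was back near its untreated level by 15 min, with 9.96 and 10.12 in rich medium, against 12.67 and 11.93 in heat, and 10.10 and 10.21 in untreated cells (-2.26 ± 0.25, limma adjusted p = 0.00236). HSP10, the chaperonin cofactor gene, had 13.84 at 15 min and 12.99 at 45 min in rich medium, against 14.14 and 14.12 in heat (share 0.73 at 15 min, limma adjusted p = 0.0813). Of the 13 ribosome-associated chaperone genes, which act on nascent chains, 5 rose and 0 fell. HSF1, the gene of the heat shock factor, had 9.89 and 9.70 in rich medium, against 10.75 and 10.63 in heat, and 9.86 and 9.70 in untreated cells (-0.90 ± 0.14, limma adjusted p = 0.00547).

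General stress genes fell most widely. Of 49 listed, 43 fell and 1 rose, beside 26.5% and 18.9% of all genes, with a median difference of -2.89. The median distance from untreated was 1.15 at 15 min and 0.02 at 45 min in rich medium, against 3.93 and 3.21 in heat. At 15 min 28 of them were still at least 2-fold above untreated, and at 45 min 2 were, beside 3.27% and 1.05% of all genes. At least 2-fold below untreated were 0 at 15 min and 4 at 45 min, beside 1.47% and 0.734% of all genes. CTT1, the cytosolic catalase gene, was already near its untreated level, with 7.96 and 7.58 in rich medium, against 12.73 and 11.35 in heat, and 7.44 and 7.56 in untreated cells (-4.27 ± 0.44, limma adjusted p = 0.00218). This list was assembled from genes known to respond to many stresses, so its fall after heat is not independent evidence of a direction.

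Trehalose and glycogen genes had a median distance from untreated of 0.28 and 0.00 in rich medium, against 2.90 and 2.47 in heat. Of the 21 genes 18 fell and 0 rose, beside 26.5% and 18.9% of all genes. TPS1, the trehalose phosphate synthase gene, had 11.47 and 11.10 in rich medium, against 14.22 and 13.77 in heat, and 11.46 and 11.48 in untreated cells, so that none of its displacement was left at 15 min (-2.71 ± 0.21, limma adjusted p = 0.00147). TSL1, a regulatory subunit of the same complex, fell by 4.10 ± 0.29 on the log2 scale (limma adjusted p = 0.00131), with a share of 0.20 left. PGM2, the phosphoglucomutase gene, fell by 3.76 ± 0.50 (limma adjusted p = 0.00337), with a share of 0.36 left.

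Protein turnover genes fell in part. Of 22 ubiquitin and quality control genes 12 fell and 0 rose, and of 42 proteasome genes 16 fell and 0 rose, with median differences of -0.75 and -0.50. Over all genes 26.5% fell and 18.9% rose. UBI4, the polyubiquitin gene, had 11.69 and 9.99 in rich medium, against 13.73 and 13.32 in heat, and 10.76 and 10.60 in untreated cells. Its difference was -2.69 ± 0.53 (limma adjusted p = 0.0104), and the call was lost without the heat array at 30 min (adjusted p = 0.0717). RPN4, the proteasome gene activator, was lower than untreated at 15 min, with 10.89 and 11.15 in rich medium, against 12.49 and 12.30 in heat, and 11.30 and 11.29 in untreated cells (-1.37 ± 0.15, limma adjusted p = 0.00233). Of 33 autophagy and vacuolar proteolysis genes 26 fell and 1 rose, among them ATG8 (-2.73 ± 0.42, limma adjusted p = 0.00506), which coats autophagosomes.

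Among 28 stress transcription factor genes 14 fell and 4 rose, beside 26.5% and 18.9% of all genes. XBP1, a stress-induced repressor gene, fell by 3.37 ± 0.34 on the log2 scale (limma adjusted p = 0.00206), and NRG1, a repressor of glucose-repressed genes, by 1.81 ± 0.14 (limma adjusted p = 0.00152). MSN4 had 7.97 at 15 min and 8.75 at 45 min in rich medium, against 10.08 and 9.32 in heat, and 8.95 and 9.01 in untreated cells, so that it was -1.01 from untreated at 15 min. Its call (-1.34 ± 0.34, limma adjusted p = 0.0239) was lost without either untreated array, the heat array at 30 min or the rich medium array at 15 min (adjusted p up to 0.115).

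Nearly all genes for making ribosomes rose. Of 150 ribosome biogenesis genes 145 rose and 0 fell, beside 18.9% and 26.5% of all genes, with a median difference of 2.44. Their median distance from untreated was 0.19 at 15 min and 0.12 at 45 min in rich medium, against -2.68 and -1.83 in heat. At 15 min 120 of the 150 were above untreated, beside 2503 of all 5449 genes. NSR1, the yeast nucleolin gene, had 13.49 and 13.36 in rich medium, against 8.89 and 9.82 in heat, and 13.20 and 13.26 in untreated cells (4.08 ± 0.30, limma adjusted p = 0.00137). Both recovery arrays were above both untreated ones. DHR2, a pre-rRNA helicase gene, had 11.51 and 11.39 in rich medium, against 5.61 and 7.54 in heat, and 11.04 and 11.03 in untreated cells (4.88 ± 0.58, limma adjusted p = 0.00262). NOP7, HCA4, HAS1 and SDA1, further assembly factor genes, rose by between 4.01 and 4.20 on the log2 scale.

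DBP2, which encodes an RNA helicase of ribosome assembly and messenger RNA export, had the largest rise among genes past the threshold. It had 12.64 and 13.03 in rich medium, against 7.08 and 6.87 in heat, and 13.07 and 13.03 in untreated cells. In heat it had stayed down at both times, and a 54.8-fold gain by 15 min brought it close to its untreated level (5.86 ± 0.18, limma adjusted p = 0.000408). PHO89, a sodium-phosphate cotransporter gene, gained 99.5-fold by 15 min, the largest gain of any heat-repressed gene. It had 13.77 and 11.97 in rich medium, against 7.27 and 7.13 in heat, and 10.17 and 10.45 in untreated cells, so both recovery arrays were above both untreated ones (5.67 ± 0.55, limma adjusted p = 0.00195).

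HXT2 and AAH1 were also among the 8 heat-repressed genes with the largest gains. HXT2, a high-affinity glucose transporter gene, had 13.45 and 13.19 in rich medium, against 9.07 and 7.94 in heat, and 13.06 and 13.07 in untreated cells (4.82 ± 0.36, limma adjusted p = 0.0014). AAH1, the adenine deaminase gene, had 13.04 and 13.27 in rich medium, against 7.70 and 9.30 in heat, and 12.95 and 12.95 in untreated cells (4.65 ± 0.49, limma adjusted p = 0.00218). Both genes were above their untreated arrays at 15 min. In the list of hexose transport and glucose repression, which holds HXT2, 3 of 23 genes rose and 5 fell. Neither is a larger share than the 18.9% and 26.5% of all genes. BSC1 and PRM7, the other genes of the 8 largest gains, were lower at 45 min than at 15 min. The heat arrays of BSC1 were not above background, so the size of its gain is only a bound. BSC1 had 7.97 at 15 min and 6.93 at 45 min in rich medium, against 4.52 and 4.29 in heat, and 8.25 and 8.28 in untreated cells. PRM7 had 11.13 and 9.98 in rich medium, against 7.33 and 7.78 in heat, and 11.12 and 10.92 in untreated cells.

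OLE1, the fatty acid desaturase gene, showed the same reversal on a larger scale. It had 13.27 at 15 min and 10.98 at 45 min in rich medium, against 10.03 and 10.29 in heat, and 12.82 and 12.92 in untreated cells. It was thus above untreated at 15 min and nearer to the heat level at 45 min, with a share of 0.73 left again, and did not pass (1.96 ± 0.69, limma adjusted p = 0.0611). RSB1, a sphingoid base exporter gene, moved the other way, with 6.26 and 6.84 in rich medium, against 10.15 and 9.74 in heat, and 8.67 and 8.52 in untreated cells (-3.40 ± 0.24, limma adjusted p = 0.00131). Both its recovery arrays lay well below the untreated ones.

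None of the 8 repressed genes with the largest shares left was in the ribosome biogenesis list. FRE1 had 10.26 at 15 min and 11.78 at 45 min in rich medium, against 9.64 and 9.63 in heat, and 12.48 and 12.53 in untreated cells, and narrowly failed the test (1.39 ± 0.46, limma adjusted p = 0.0527). GPX2, a glutathione peroxidase gene, had 9.52 and 11.39 in rich medium, against 8.74 and 8.62 in heat, and 11.74 and 11.57 in untreated cells (1.77 ± 0.56, limma adjusted p = 0.0469). YHB1, the nitric oxide-scavenging flavohaemoglobin gene, had 12.47 and 13.46 in rich medium, against 10.79 and 11.39 in heat, and 13.68 and 13.76 in untreated cells (1.87 ± 0.36, limma adjusted p = 0.00971). These 3 genes had shares of 0.78, 0.70 and 0.54 left at 15 min, and of 0.25, 0.09 and 0.11 at 45 min.

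The others with large shares left were YMR230W-A (0.68), the cysteine lyase gene IRC7 (0.65), the transcription factor gene SFG1 (0.64), the tubulin-folding gene CIN2 (0.53) and the phospholipase gene PLB2 (0.41). PLB2 alone of the 8 moved away again, with 10.48 at 15 min and 9.70 at 45 min in rich medium, against 8.15 and 8.89 in heat, and 11.63 and 11.49 in untreated cells. All 5 genes passed the limma test, with adjusted p between 0.0123 and 0.0455. Calls were lost without either untreated array or either heat array for GPX2, YMR230W-A and IRC7 (adjusted p up to 0.156, 0.186 and 0.108), without either heat array for CIN2 (up to 0.111), and without the heat array at 30 min for SFG1, YHB1 and PLB2 (0.0644, 0.0631 and 0.0742).

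Other lists of transcription and translation genes had smaller median differences than ribosome biogenesis, and the difference between lists was not tested. Of 38 RNA polymerase I and III genes 25 rose and 1 fell (median 1.06), among them RPA49 (2.69 ± 0.33, limma adjusted p = 0.00272) and RPA43 (2.64 ± 0.37, limma adjusted p = 0.00383), both of RNA polymerase I. Of 39 translation factor genes 27 rose and 0 fell (median 0.79), and of 21 tRNA synthetase genes 11 rose and 0 fell (median 0.72). Over all genes 18.9% rose and 26.5% fell. Of 127 cytosolic ribosomal protein genes 25 rose and 1 fell, which is a share close to that of all genes for the rises. Their median distance from untreated was -0.12 and -0.06 in rich medium, against -0.86 and -0.33 in heat. Of 71 mitochondrial ribosomal protein genes 0 rose and 16 fell (median -0.26), and the falls are no larger a share than the 26.5% of all genes.

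Of 32 purine, pyrimidine and one-carbon genes 18 rose and 2 fell, and of 54 amino acid synthesis genes 24 rose and 3 fell. Over all genes 18.9% rose and 26.5% fell. URA7, a CTP synthase gene, rose by 3.88 ± 0.68 on the log2 scale (limma adjusted p = 0.00743), and ARO4, of aromatic amino acid synthesis, by 1.98 ± 0.26 (limma adjusted p = 0.0033). Sulfur and methionine genes peaked at 15 min. Their median distance from untreated was 0.90 at 15 min and -0.22 at 45 min in rich medium, against 0.05 and 0.20 in heat, and 11 of 27 were at least 2-fold above untreated at 15 min, with 0 at 45 min, beside 3.27% of all genes at 15 min and 1.05% at 45 min (genes at least 2-fold below untreated were 1.47% and 0.734%). In the comparison of rich medium with heat 4 of them rose and 0 fell, and the rises are no larger a share than the 18.9% of all genes. The 4 include SAM1, the S-adenosylmethionine synthetase gene (2.19 ± 0.37, limma adjusted p = 0.00677).

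**Figure D4:**
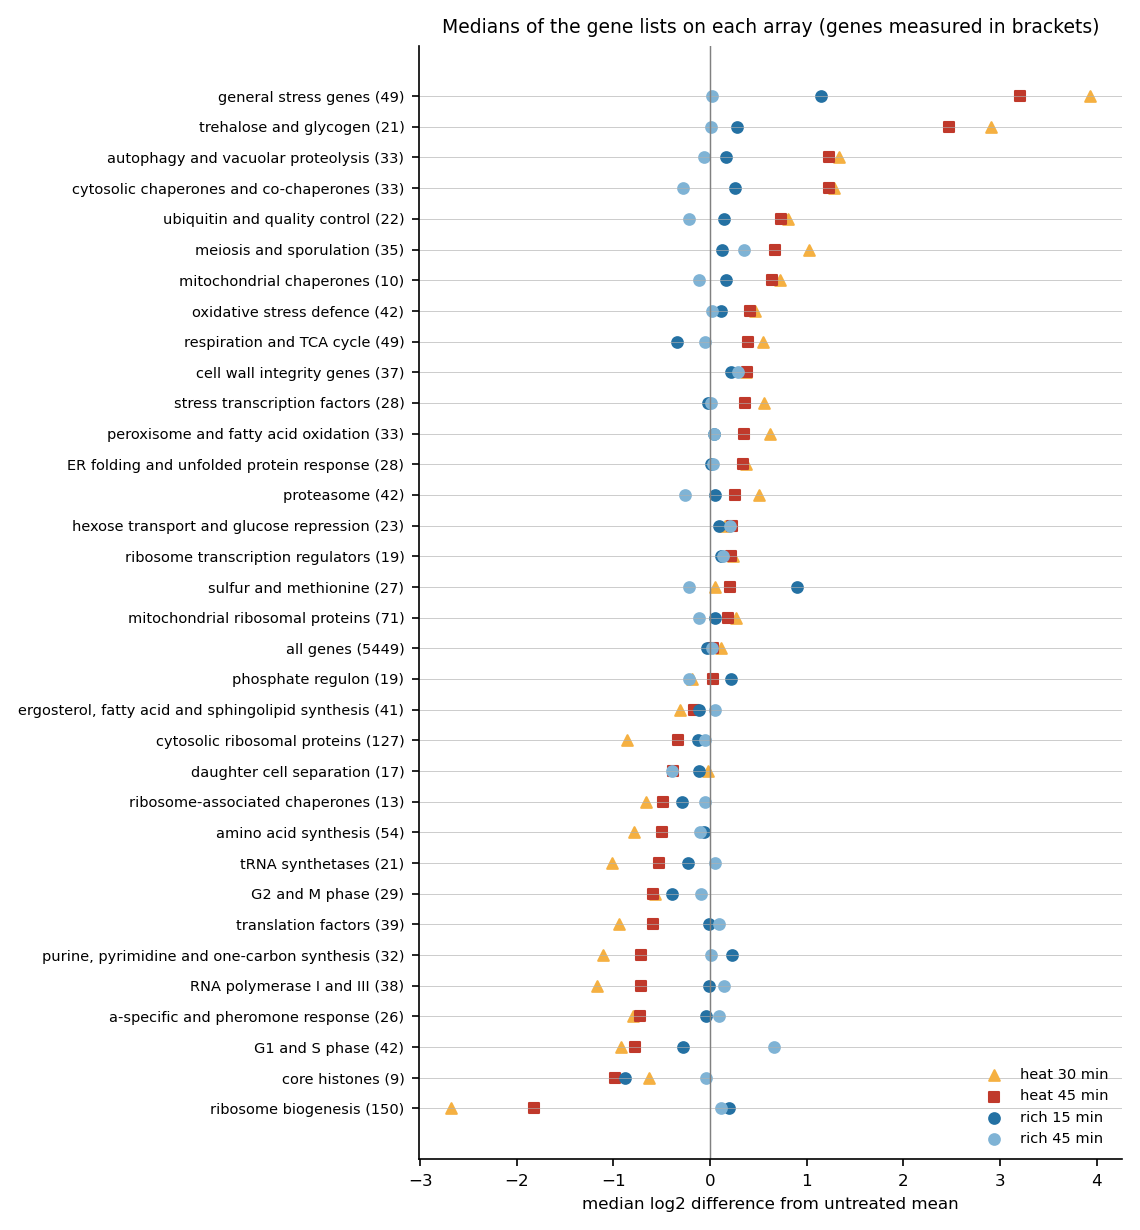
Median log2 difference from the untreated mean (horizontal) for each gene list (rows, with the number of genes measured) on the 4 arrays. Ribosome biogenesis goes back to 0.19 at 15 min in rich medium, against -1.83 at 45 min of heat, general stress genes still stand at 1.15, sulfur genes peak at 0.90, and core histones stay at -0.88 until 45 min.

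Of 42 genes of G1 and S phase 23 rose and 0 fell, beside 18.9% and 26.5% of all genes. Their median distance from untreated was -0.28 at 15 min and 0.67 at 45 min in rich medium, against -0.92 and -0.78 in heat. At 45 min 41 of 42 were above untreated, where 8 had been at 15 min. Of all 5449 genes 2917 were above untreated at 45 min and 2503 at 15 min. SVS1, a cell wall gene of the G1 set, had 12.19 and 13.10 in rich medium, against 9.23 and 10.74 in heat, and 12.50 and 12.45 in untreated cells (2.66 ± 0.53, limma adjusted p = 0.0108), and its share left at 15 min was 0.16. Of 29 genes of G2 and M phase 9 rose and 0 fell, with a median distance from untreated of -0.40 and -0.09 in rich medium, against -0.57 and -0.59 in heat. The 9 histone genes had a median of -0.88 at 15 min and -0.05 at 45 min in rich medium, against -0.63 and -0.98 in heat, and 0 passed the test. HTA1, a histone H2A gene, had 12.84 and 13.68 in rich medium, against 12.95 and 12.56 in heat, and 13.54 and 13.62 in untreated cells, so that its 15 min array lay between the heat arrays.

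Energy genes went below their untreated level at 15 min by their median. Of 49 respiration and TCA cycle genes 31 fell and 0 rose, and their median distance from untreated was -0.35 at 15 min and -0.05 at 45 min in rich medium, against 0.55 and 0.39 in heat. CIT1, the mitochondrial citrate synthase gene, had 11.09 and 11.23 in rich medium, against 13.86 and 13.29 in heat, and 11.79 and 11.78 in untreated cells (-2.42 ± 0.21, limma adjusted p = 0.00179). Of 33 peroxisome and fatty acid oxidation genes 17 fell and 2 rose, and of 42 oxidative stress genes 20 fell and 5 rose. Over all genes 26.5% fell and 18.9% rose. Of 37 cell wall integrity genes 9 fell and 2 rose, a share of falls close to that of all genes. MTL1, a cell wall stress sensor gene, fell by 2.63 ± 0.17 on the log2 scale (limma adjusted p = 0.00131).

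Most genes of mating rose. Of 26 a-specific and pheromone response genes 18 rose and 3 fell, beside 18.9% and 26.5% of all genes, with a median difference of 1.12. AGA1, the anchor of the a-agglutinin, had 11.67 and 11.97 in rich medium, against 8.73 and 8.74 in heat, and 11.28 and 11.29 in untreated cells (3.09 ± 0.15, limma adjusted p = 0.00131). Of 35 meiosis and sporulation genes 18 fell and 0 rose, beside 26.5% and 18.9% of all genes. Their untreated levels were low, from 3.57 to 8.96, and 27 of the 35 were above background on all 6 arrays. Their median difference was -0.60, but -0.20 after quantile normalization and -0.15 in the authors' deposited fold-change table, so its size depends on the scaling. SPS100, a spore wall gene, had 5.62 and 5.72 in rich medium, against 7.66 and 7.11 in heat, and 5.98 and 5.78 in untreated cells (-1.72 ± 0.21, limma adjusted p = 0.00281). All 7 markers of sporulating cells were above background on all 6 arrays, with summed levels (log2 of the sum) of 9.39 and 9.43 in rich medium, against 10.16 and 9.84 in heat, and 9.03 and 9.01 in untreated cells.

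The same return after KCl served as a comparison. Among 136 genes induced at least 4-fold by both heat and KCl, the median share left at 15 min was 0.31 after heat and 0.63 after KCl, and less was left after heat for 120 of them. At 45 min the medians were 0.01 and 0.02. Among 70 genes repressed by both, the medians at 15 min were -0.06 after heat and 0.07 after KCl. Both sets of shares use the same untreated arrays, and the difference in medians was not tested. Each share is divided by its own displacement at 45 min of stress, so an equal log2 drop leaves more where that was larger. From 45 min of stress to 15 min in rich medium, general stress genes went from 3.21 to 1.15 after heat and from 4.63 to 2.82 after KCl (list medians). Trehalose and glycogen genes went from 2.47 to 0.28 and from 3.56 to 1.27, and cytosolic chaperone genes from 1.23 to 0.26 and from 0.66 to 0.32. The log2 changes in the first 15 min, which share no array, had r = 0.60 across the 136 induced genes, which are not independent replicates. Intermediate and fast heat-induced genes that KCl also induced had median shares after KCl of 0.72 and 0.43.

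The difference between the 2 switch-offs was tested directly, as the change from heat to rich medium minus the change from KCl to rich medium. In limma 53 genes passed (0.973%), 33 with the larger value after heat (0.606%) and 20 with the lower value (0.367%), and 1171 had an unadjusted p under 0.05. These calls are weak. The number was 3 without either untreated array or either heat array, 5 without the KCl array at 30 min and 227 without that at 45 min. Dropping the 15 min recovery array after heat gave 37 and dropping the 45 min one gave 9, and dropping those after KCl gave 116 and 91. Of the 10 genes with the largest differences, given here by name, 0 passed in every one of these fits.

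**Figure D5:**
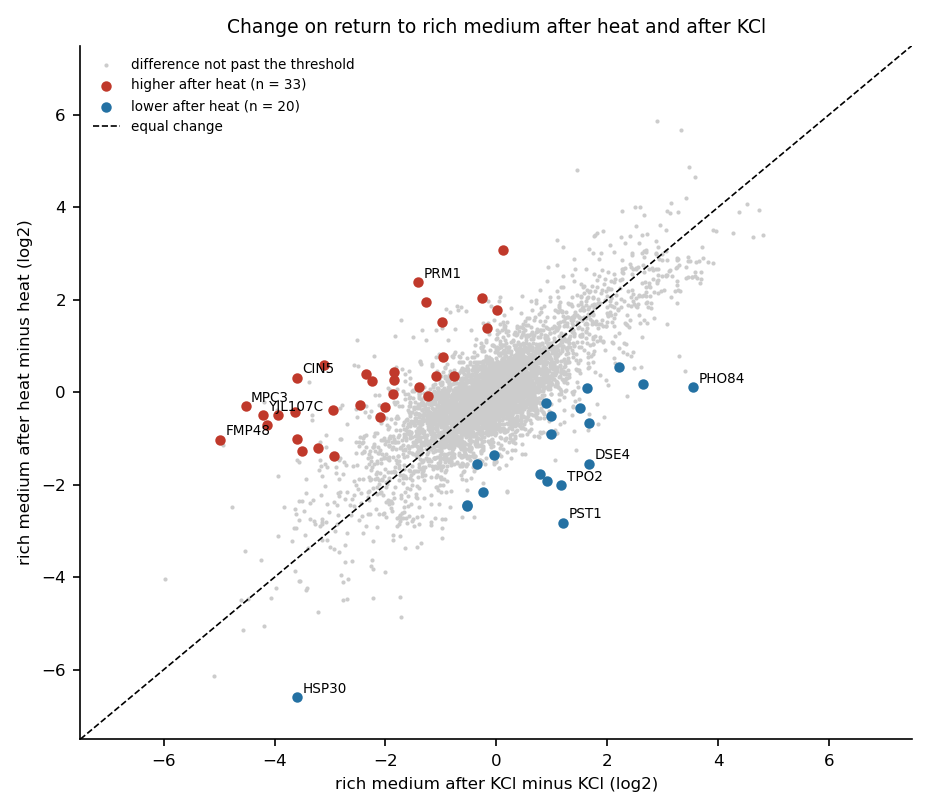
Log2 change from heat to rich medium (vertical) against that from KCl to rich medium (horizontal), each the mean of 2 arrays minus the mean of 2 arrays, with the 53 genes whose difference passed coloured and the 10 largest named. HSP30 changed by -6.59 after heat and -3.59 after KCl, and MPC3 changed by -0.30 after heat and -4.52 after KCl.

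HSP30 fell more after heat, with a log2 change of -6.59, against -3.59 after KCl (difference -3.00 ± 0.48, limma adjusted p = 0.0369, highest adjusted p on leaving out 1 array 0.118). Its distance from untreated had been 6.85 and 6.26 in heat, against 2.91 and 1.95 in KCl. PST1, a cell wall protein gene, changed by -2.82 after heat and by 1.21 after KCl (difference -4.02 ± 0.61, limma adjusted p = 0.036, highest 0.142). PHO84, the high-affinity phosphate transporter gene, changed by 0.11 after heat and by 3.56 after KCl (difference -3.45 ± 0.37, limma adjusted p = 0.0167, highest 0.100). DSE4, a daughter cell glucanase gene, and TPO2, a polyamine exporter gene, had differences of -3.21 ± 0.54 and -3.18 ± 0.52 (limma adjusted p = 0.044 and 0.0427, highest 0.156 for both). The probe set for TPO2 is one that the array marks as shared between similar transcripts.

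Of the 5 genes on the other side, MPC3, FMP48, CIN5 and YJL107C had been raised far more by KCl than by heat. MPC3, a mitochondrial pyruvate carrier gene, changed by -0.30 after heat and by -4.52 after KCl (difference 4.22 ± 0.58, limma adjusted p = 0.0308, highest 0.133), having been 0.88 and -0.20 from untreated in heat, against 6.19 and 6.11 in KCl. FMP48, CIN5 and YJL107C had the same form, with differences of 3.95 ± 0.54, 3.92 ± 0.53 and 3.71 ± 0.48 (limma adjusted p = 0.0308 for each, highest 0.133 for each). CIN5 encodes a basic leucine zipper factor of salt tolerance. PRM1, a membrane fusion gene of mating, had been at -1.76 and -1.38 from untreated in heat, against 0.84 and -0.05 in KCl, and changed by 2.38 after heat and by -1.41 after KCl (difference 3.79 ± 0.49, limma adjusted p = 0.0308, highest 0.113). Among the 26 a-specific and pheromone response genes 4 passed with the larger value after heat and 0 with the lower, beside 0.606% and 0.367% of all genes. Over all genes 3 calls were left when 1 heat array or 1 untreated array was left out.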

How the data were processed

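Total RNA was measured on Affymetrix yeast arrays with poly(T)-primed cDNA, per the labels' protocols. The deposited values are log2 levels for each probe set. RMA produced them, according to the submitters' processing notes, and its version and settings are not given in the sources used here. The authors' deposited log2 fold-change table served as an alternative. The array held 10928 probe sets. Exactly 1 yeast gene was given for 5498, and for 47 genes with more than 1 probe set the brightest was taken (5449 genes in all). Not used were 1746 whose gene the gene table lacks, 3683 the annotation lacks and 1 with more than 1 gene. Background was the 95th percentile of the values of the 1746 whose gene the gene table lacks. The number of arrays limits precision.

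Fits used limma 3.58.1 in R 4.3.3 (lmFit, eBayes) with 1 level per group. Calls needed an adjusted p under 0.05. Rich medium against heat used 6 arrays, untreated included, and heat against KCl used 10. Errors are limma standard errors. On simulated data with 5449 genes, rich medium against heat found 59.6% of 2-fold and 93.6% of 4-fold changes, and heat against KCl 11.6% and 70.0%. The 35 gene lists, the classes and the named genes were chosen with earlier results of these data known. Named were the 10 largest falls and rises past the threshold with separate groups, the 8 largest early changes and shares left in each class, the 5 largest differences from KCl each way, up to 4 members of each list, and 18 genes always given. Genes on either side of a class limit are named too. Alternatives changed the normalization, dim genes, probe sets, value source, variance model, arrays in the fit, start of recovery, baseline and fold limits, and left out each array.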

Additional observations from a re-analysis of the deposited data

Results flagged for a closer look

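The change on return to rich medium differed between heat and KCl for 53 genes by limma's test of the difference itself. The largest differences, heat minus KCl on the log2 scale, were -4.02 for PST1, -3.45 for PHO84, -3.21 for DSE4, -3.18 for TPO2 and -3.00 for HSP30 on the low side, and 4.22 for MPC3, 3.95 for FMP48, 3.92 for CIN5, 3.79 for PRM1 and 3.71 for YJL107C on the high side. Each was picked out because the test of the difference passed over all genes, and each lost its call on leaving out at least 1 of the 10 arrays. No group has enough arrays for a test of single outlying arrays.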

How the results depend on the processing

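For rich medium after heat against heat, 1446 genes lower and 1029 higher became 936 lower when the fit held only the groups compared, and 681 lower and 564 higher when 2-fold was also required. Leaving out 1 array gave 783 to 1496 lower and 677 to 1261 higher. The difference between heat and KCl (20 lower, 33 higher) gave 31 lower after quantile normalization, 19 higher without the dimmest 25% of genes, and 39 lower and 56 higher in the authors' deposited table. It gave 0 lower and 3 higher with only the groups compared (3 in all, limma, with 886 at an unadjusted p under 0.05), and 138 lower and 256 higher with all groups. Leaving out 1 array gave 0 to 84 lower and 3 to 143 higher. The median share left at 45 min of induced genes, 0.02, was -0.0192 after quantile normalization and -0.0490 without dim genes, and the share at 15 min was 0.24 with 2-fold classes. The count lower at 15 min was 305 without dim genes, and at 4-fold 109 were lower and 140 higher. Fewer genes or arrays enter some of these by construction; for the rest the cause was not tested. No other count or share listed as an alternative moved past its limit, and no result past its threshold changed direction. Differences between rich medium and heat that had not passed changed sign under some alternatives for CIN5, HHT1, MPC3, PHO84, MF(ALPHA)1, MF(ALPHA)2 and SAG1. Under other scalings some list medians near 0 changed sign, among them general stress and trehalose genes at 45 min in rich medium. Of 149 named genes past the threshold for rich medium against heat, 94 passed without any 1 array. No paired analysis was possible because the arrays of a group are different times and the labels give no replicate numbers. The array's upper limit was not measured, and its part in the values of the brightest genes was not tested.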

Other observations

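A further set of genes was chosen after its values were seen: those within 0.5 of the untreated mean (log2) on both heat arrays and at least 2-fold from it at 15 min in rich medium. There were 30 of 5449 genes, 16 higher and 14 lower, and 27 of them were within 2-fold of untreated again at 45 min. Genes chosen for an extreme on 1 array tend to be less extreme on another, so this return is partly built in. YOR338W had 10.81 and 8.99 in rich medium, against 7.36 and 7.23 in heat, and 7.32 and 7.23 in untreated cells. RCK1, a protein kinase gene, had 9.26 and 7.33 in rich medium, against 6.53 and 6.47 in heat, and 6.41 and 6.37 in untreated cells. Both were thus high on the 15 min array and much lower again at 45 min.

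The sulfur assimilation genes MET1, MET3 and MET32 belonged to this set. MET3, the ATP sulfurylase gene, had 10.68 and 9.04 in rich medium, against 9.70 and 9.71 in heat, and 9.23 and 9.25 in untreated cells. HXT1, the low-affinity glucose transporter gene, went the other way, with 10.18 and 11.70 in rich medium, against 11.80 and 12.05 in heat, and 12.28 and 12.21 in untreated cells. HHT2, a histone H3 gene, had 11.54 and 12.48 in rich medium, against 12.41 and 12.43 in heat, and 13.07 and 12.64 in untreated cells. SWI4, a G1 transcription factor gene, had 6.51 and 7.89 in rich medium, against 7.86 and 7.73 in heat, and 7.57 and 7.52 in untreated cells. In each of these the 15 min array stood apart from the heat and untreated arrays, which the rule of choice required. With 1 array per time no test was made.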
